A study of Mus musculus with 12 samples.

Results

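The synaptic vesicle and release genes are 38 mouse genes whose proteins build, fill, fuse and recycle the vesicles that carry neurotransmitter at nerve terminals. They were taken from a list of symbols and matched by symbol to Ensembl identifiers, and all 38 were found among the 49548 genes of the count tables. RNA came from the lumbar spinal cord, the segment that serves the hind limbs, and was sequenced at 30 days of age in 8 mice labelled CMT2A, called MFN2 here, and in 4 WT mice. MFN2 mice are hemizygous MitoCharc1 animals, B6;D2 mice with the transgene Tg(Eno2-MFN2*R94Q)L51Ugfm/J. They carry human MFN2 with the R94Q change under the rat Eno2 promoter, which is active mainly in neurons, on top of both copies of their own Mfn2. WT mice are C57BL/6 in the labels and littermates of the MFN2 mice in the study's methods, and no animal was treated. MFN2 encodes mitofusin 2, an outer membrane protein that joins mitochondria and is altered in Charcot-Marie-Tooth disease type 2A (CMT2A), a disease of motor and sensory axons. Sex is not given in the labels. The study's methods count 8 and 4 mice, so that a library stands for a mouse.

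At a nerve terminal, vesicles are loaded with transmitter, moved to the active zone and primed by the SNARE proteins, which pull the vesicle and plasma membranes together. Calcium entering the terminal is sensed by synaptotagmins, and the membrane is afterwards retrieved by dynamin and its partners. Many of these proteins come as paralogues, close relatives encoded by separate genes. Syt2 and Vamp1 are typical of spinal cord and hindbrain synapses, among them the neuromuscular junction, while Syt1 and Vamp2 prevail in the forebrain.

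The members fall into 5 roles. Vesicle membrane proteins are encoded by 8 genes (Syn1, Syn2, Syp, Sv2a, Sv2b, Sv2c, Syngr1 and Syngr3) and calcium sensors and related C2-domain proteins by 8 (Syt1, Syt2, Syt4, Syt5, Syt7, Syt11, Doc2a and Rph3a). Fusion proteins and their regulators take another 8 (Snap25, Stx1a, Vamp1, Vamp2, Cplx1, Cplx2, Napb and Nsf) and the active zone with its Rab3 proteins 8 (Rab3a, Rab3c, Rims1, Rims2, Unc13a, Bsn, Pclo and Erc2). The remaining 6 retrieve membrane (Snap91, Dnm1, Amph, Bin1, Synj1 and Sh3gl2).

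Because the results turn on 4 pairs of paralogues, their coding sequences were compared in GENCODE M21, to show how far reads of one gene could be taken for the other. Capitals mark the longest stretch that is identical in both genes of a pair, with 12 bases on either side. Identity between the aligned coding sequences was 75.8% for Syt2 and Syt1, 68.4% for Vamp1 and Vamp2, 79.8% for Cplx1 and Cplx2 and 66.6% for Sv2c and Sv2b.
Syt2: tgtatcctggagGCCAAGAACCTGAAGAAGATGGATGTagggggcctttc
Syt1: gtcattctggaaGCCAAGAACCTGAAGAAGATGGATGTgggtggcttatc
Vamp1: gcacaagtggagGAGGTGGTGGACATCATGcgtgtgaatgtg
Vamp2: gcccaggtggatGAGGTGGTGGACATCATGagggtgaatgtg
Cplx1: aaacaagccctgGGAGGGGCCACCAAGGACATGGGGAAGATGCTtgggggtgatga
Cplx2: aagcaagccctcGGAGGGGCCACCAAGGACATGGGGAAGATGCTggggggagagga
Sv2c: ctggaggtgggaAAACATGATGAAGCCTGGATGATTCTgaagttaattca
Sv2b: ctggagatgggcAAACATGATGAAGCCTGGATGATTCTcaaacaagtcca

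The longest shared stretch was 26 bases for Syt2 and Syt1, 18 for Vamp1 and Vamp2, 32 for Cplx1 and Cplx2 and 26 for Sv2c and Sv2b. All 4 are shorter than the reads described in the study's methods, so that a read within these coding sequences spans bases that differ. For Syt2 and Syt1 the stretch lies at coding positions 889 to 914 and 886 to 911, counted from the first base of the start codon. For Vamp1 and Vamp2 it lies at 127 to 144 and 121 to 138.

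Transcripts of all 38 genes were well above the detection limit in the cord, and their levels ranged widely. Total counts ran from 19359454 to 26738930 in MFN2 libraries and from 19453238 to 23564568 in WT libraries, and the 38 genes together took between 1.36% and 1.77% of the counts of a library. All 38 passed the filter and exceeded 1 CPM (reads of a gene per 1000000 reads, TMM-scaled) in all 12 libraries. Compared per length of exon as RPKM, the most abundant in WT cords was Cplx1, which encodes complexin 1, a clamp and helper of SNARE fusion, at 449 ± 31.8 RPKM (SD, n = 4). It was followed by Snap25, a SNARE of the plasma membrane, at 263 ± 21.8 RPKM, and by Dnm1, the GTPase that cuts vesicles free during retrieval, at 200.1 ± 13.0 RPKM. The lowest were Stx1a, syntaxin 1A, at 5.21 ± 1.00 RPKM, Syt5 at 5.76 ± 1.68 RPKM and Erc2, an active zone scaffold, at 6.30 ± 0.340 RPKM; the spreads of these 3 overlap.

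**Figure D1:**
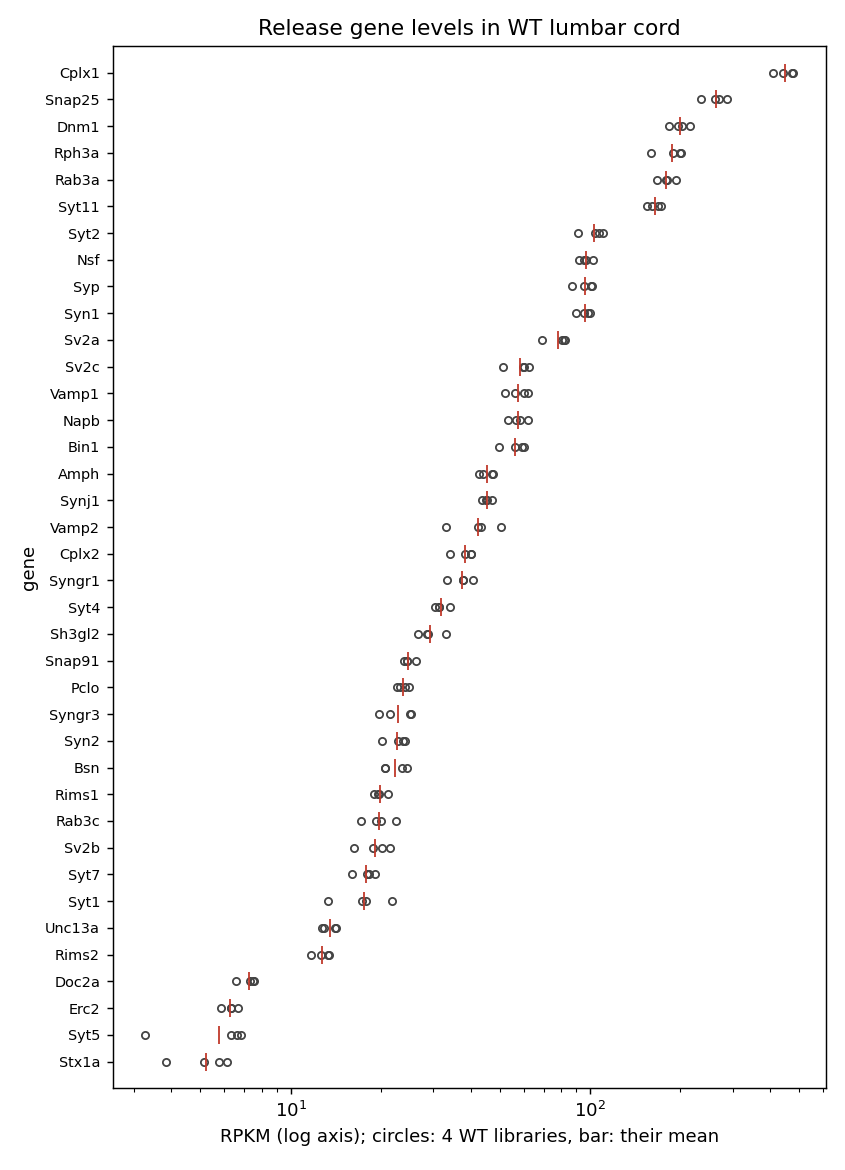
Levels of the 38 release genes in the 4 WT libraries as RPKM on a log axis, with circles for libraries and a bar for their mean. Cplx1 and Snap25 stand at the top, and Stx1a, Syt5 and Erc2 at the bottom.

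Within each of the 4 paralogue pairs 1 gene was the higher in WT cords. Syt2 stood at 103 ± 8.21 RPKM against 17.6 ± 3.43 RPKM for Syt1, and Vamp1 at 57.5 ± 4.48 RPKM against 42.2 ± 7.17 RPKM for Vamp2. Cplx1 exceeded Cplx2, which was at 38.2 ± 2.79 RPKM. Sv2c, a vesicle glycoprotein, was at 58.5 ± 5.06 RPKM against 19.2 ± 2.22 RPKM for its relative Sv2b. In each pair the 4 WT libraries of the higher gene lay above those of the lower, as the plot of WT levels shows. These levels rest on exon lengths from the annotation, which count every annotated isoform.

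One MFN2 library, number 43, stood apart from the other 11 and carried much of the apparent difference between genotypes. In it, 23 of the 38 genes were above every other library and 8 were below every other library, or 60.5% and 21.1% of the members. Of all 15942 genes tested, 25.9% were above and 28.6% below all others in library 43. The median log2 ratio of library 43 to the median of the other 11 was 0.37 over the members and -0.025 over all genes tested. Syt1 reached 1159 CPM in library 43, where the other 11 libraries lay between 111 and 234 CPM. Syt2 was at 137 CPM there, against 668 to 842 CPM in the other 11.

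The marker genes of other regions moved in the same library. All 14 forebrain genes of a marker list were above every other library, and their summed level was 4901 CPM in library 43 against 151 to 184 CPM in WT libraries, 243 and 211 CPM in libraries 41 and 42 and 166 to 202 CPM in libraries 72 to 76. Camk2a, the most abundant of them, was at 1920 CPM against at most 152 CPM elsewhere, and Tbr1, a cortical transcription factor, at 89.7 CPM against at most 0.802 CPM. Of 12 caudal Hox genes, which mark the trunk levels of the cord, 11 were below every other library, with a summed level of 49.0 CPM. All 7 motor neuron genes and all 9 oligodendrocyte genes were likewise below every other library. Chat, the enzyme that makes acetylcholine, was at 5.21 CPM in library 43 and between 16.4 and 35.3 CPM in the others. Library 43 thus goes against its label of spinal cord in these markers, and the part of that in the results was not tested. Fold changes of the genes named are therefore given with and without it.

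**Figure D2:**
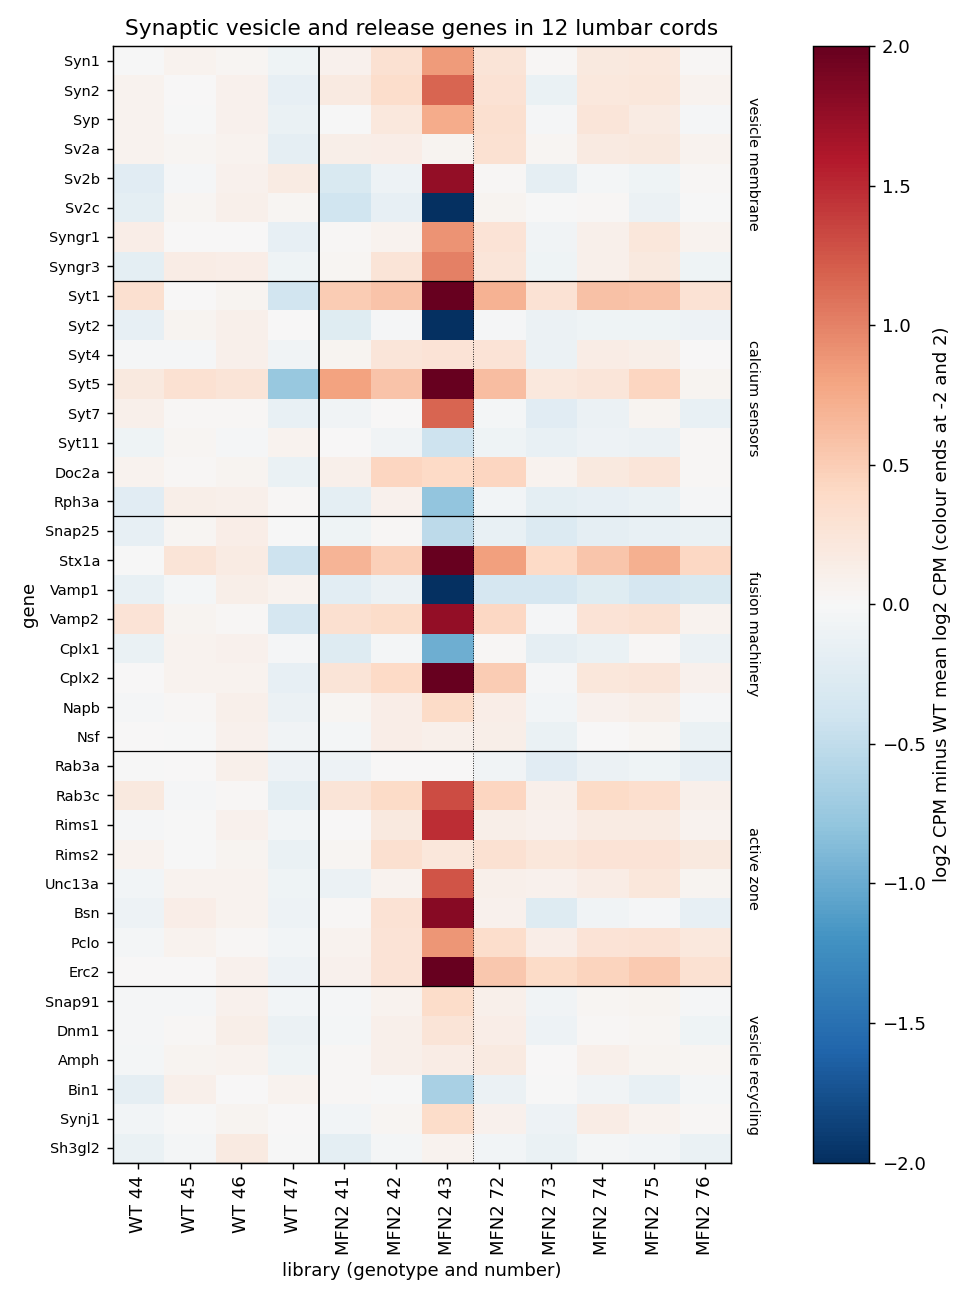
Log2 CPM of each of the 38 genes minus its mean over the 4 WT libraries, as colours from blue (lower) to red (higher) that end at -2 and 2, with genes grouped by role and libraries by genotype and number. Library 43 holds the strongest colours of both directions, and Stx1a, Pclo and Erc2 are red in most other MFN2 libraries too.

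Library numbers form 2 runs. Numbers 41 to 43 are MFN2 and 44 to 47 WT, whereas 72 to 76 are MFN2 without exception, so there number run and genotype cannot be told apart. What the numbers stand for is not given in the labels. The astrocyte list summed to 5207, 5612, 5366, 5281 and 6766 CPM in libraries 72 to 76 against 7274 to 8321 CPM in WT libraries, and to 8964, 6341 and 5907 CPM in libraries 41 to 43. The microglia list summed to between 133 and 168 CPM in libraries 72 to 76 and between 174 and 225 CPM in WT libraries, with 272, 166 and 257 CPM in libraries 41 to 43. In the edgeR fit of libraries 72 to 76 against WT, 6 of 8 astrocyte genes and 6 of 8 microglia genes were called, all lower, where 23.8% of all genes tested were called and 12.7% lower. Of the 12 pan-neuronal genes 1 was called, and it was higher, where 11.1% of all genes were called higher. Schwann cell genes summed to 386 CPM in library 43 and 380 CPM in library 73, above the other 10. Skeletal muscle genes reached 211 CPM in WT library 47 and 205 CPM in MFN2 library 73. Motor neuron genes summed to 418 CPM in WT library 47, against 195 to 236 CPM in the other WT libraries and at most 305 CPM in MFN2 libraries. Library 47 had the lowest Syt1, Vamp2, Stx1a and Syt5 of the 12. Hoxd10, a gene of the lumbar levels of the cord chosen after its values were seen, was at 23.3 CPM in WT library 44 and 0.235, 2.66 and 6.94 CPM in WT libraries 45 to 47. In MFN2 libraries it was at 31.6, 28.8, 29.1 and 29.2 CPM in 42, 72, 74 and 75. It was at 1.87, 3.10, 13.9 and 7.49 CPM in 41, 43, 73 and 76. Endothelial genes summed to between 127 and 188 CPM in all 12. The 4 cerebellum genes were near 0 in all libraries, with a summed level of at most 1.88 CPM. In bulk tissue, fewer cells of a type and less RNA per cell cannot be told apart, and the part of these shifts in the results below was not tested.

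**Figure D3:**
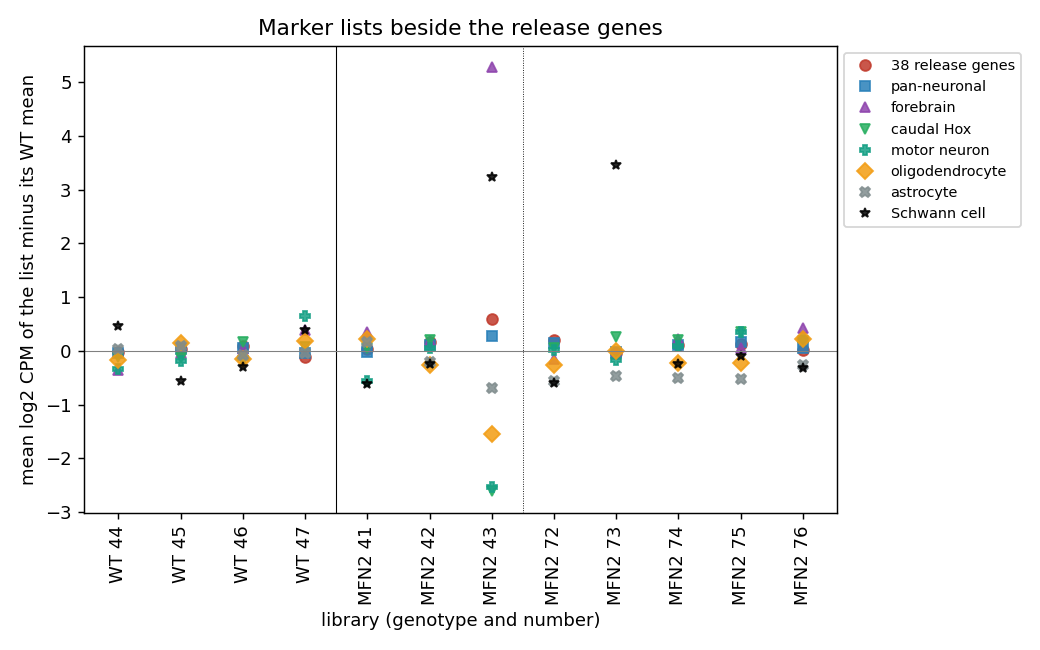
Mean log2 CPM of the 38 release genes and of 7 marker lists minus the mean over the WT libraries, for each of the 12 libraries by genotype and number. Library 43 is high for forebrain genes and low for caudal Hox, motor neuron and oligodendrocyte genes, libraries 43 and 73 are high for Schwann cell genes, and the astrocyte list is lowest in library 43 and low in libraries 72 to 76.

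The comparison of MFN2 with WT cords asks whether these transcripts differ between the genotypes at 30 days. By the labels the strain differs as well, B6;D2 against C57BL/6, although the study's methods call the WT mice littermates. Under those labels strain and transgene cannot be told apart in any comparison below. Mfn2 itself was at 206 ± 12.8 CPM (SD, n = 8) in MFN2 cords and 213 ± 15.1 CPM (SD, n = 4) in WT cords, a log2 fold change of -0.047 with an FDR of 0.73 in edgeR's quasi-likelihood test, or -0.063 with an FDR of 0.55 without library 43. The human transgene was not analysed here, so Mfn2 does not check the labels. Over all 12 libraries that test called 0 of the 38 genes at an FDR of 0.05, and 0% of the 15942 genes tested. With unadjusted p under 0.05 there were 4 members, Rims2, Pclo, Doc2a and Rab3c, all higher in MFN2 cords. That is 10.5% of the members, against 15.0% of all genes tested in either direction with 7.40% higher and 7.57% lower. The log2 fold change was positive for 28 and negative for 10 of the 38, with a median of 0.18, where the median over all genes tested was 0.0038. DESeq2, run on the same filtered counts, called 3 members, Stx1a, Syt1 and Rims2, all higher, or 7.89% of the members, where it called 200 genes, or 1.25% of all (0.759% in the higher direction).

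Without library 43, 0 of the 38 genes passed the FDR threshold, where 0.120% of all genes tested did (0.0379% higher and 0.0821% lower), and the lowest FDR among them was 0.075 in the edgeR test. Unadjusted p was under 0.05 for 12 members higher and 1 lower in MFN2 cords, or 34.2% of the members, against 21.2% of all genes tested, with 10.7% higher and 10.4% lower. The median log2 fold change over the members was 0.077 and over all genes tested -0.0022. The mean log2 CPM of the pan-neuronal list was 7.91 ± 0.049 (SD, n = 4) in WT cords and 7.99 ± 0.074 (SD, n = 7) in MFN2 cords without library 43, where the mean of the 38 genes was 7.87 ± 0.082 and 7.96 ± 0.083. Of the 12 pan-neuronal genes 7 had a positive and 5 a negative log2 fold change without library 43, with a median of 0.062. Snhg11, a neuronal noncoding RNA, differed most, at 305 ± 58.4 CPM (SD, n = 4) in WT cords and 477 ± 162 CPM (SD, n = 7) in MFN2 cords. Libraries 72 to 76 were all at 444 CPM or more, while 41 and 42, at 244 and 308 CPM, lay within or below the WT range of 254 to 378 CPM. Tubb3, a neuronal tubulin, was at 385 ± 30.6 CPM in WT cords and 352 ± 23.4 CPM in MFN2 cords without library 43. With the pan-neuronal score as a covariate over all 12 libraries, the median over the members was -0.029. That score was highest in library 43, at 8.19, where 6 of its 12 genes were above and 3 below every other library. With it the log2 fold change was 0.14 for Stx1a (edgeR FDR 0.95), 0.12 for Syt1 (edgeR FDR 0.94), 0.085 for Pclo (edgeR FDR 0.75), 0.084 for Erc2 (edgeR FDR 0.93) and 0.011 for Syn1 (edgeR FDR 0.98), and 0.19 for Rims2 (edgeR FDR 0.58). These fits keep library 43, so they do not speak for the shift in the other libraries. The part of neuronal content in that shift was not tested. The levels of 2 members, Stx1a and Pclo, did not overlap between genotypes with all 12 libraries, both higher, or 5.26% against 2.04% of all genes tested and 0.979% in the higher direction. Without library 43 the same 2 members did not overlap, where 2.86% of all genes tested did not, 1.37% in the higher direction.

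MFN2 libraries 72 to 76 and 41 to 43 were also each compared with the same 4 WT libraries, which both comparisons share. With libraries 72 to 76, 7 members were called, 5 higher (Erc2, Rims2, Pclo, Stx1a and Syt1) and 2 lower (Vamp1 and Snap25). That is 18.4% of the members, against 23.8% of all genes tested, so the share of members called was below the background. Calls higher took 13.2% of the members and 11.1% of all genes, and calls lower 5.26% and 12.7%. Unadjusted p was under 0.05 for 15 members, 12 higher and 3 lower, or 39.5%, where it was for 37.8% of all genes, 18.4% higher and 19.4% lower. Levels of 5 members did not overlap with WT (4 higher, and Vamp1 lower), or 13.2% against 19.8% of all genes, 9.50% in the higher direction. With libraries 41 to 43, 0 members were called, where 0.00658% of all genes were. In that comparison 12 members, all higher, had an unadjusted p under 0.05 in the edgeR test, or 31.6%, against 7.12% of all genes and 5.18% in the higher direction. Levels of 10 members, all higher, did not overlap with WT, or 26.3% against 8.97% of all genes and 4.68% in the higher direction. With libraries 41 and 42 alone against WT, 0 members passed the FDR threshold, where 0.00667% of all genes did, and 12 had an unadjusted p under 0.05 (11 higher and 1 lower), or 31.6% against 5.72% of all genes, with 3.37% higher and 2.36% lower. Levels of 11 members, all higher, did not overlap, or 28.9% against 14.7% of all genes and 7.41% in the higher direction. With 2 libraries in a group, no overlap is easily reached.

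**Figure D4:**
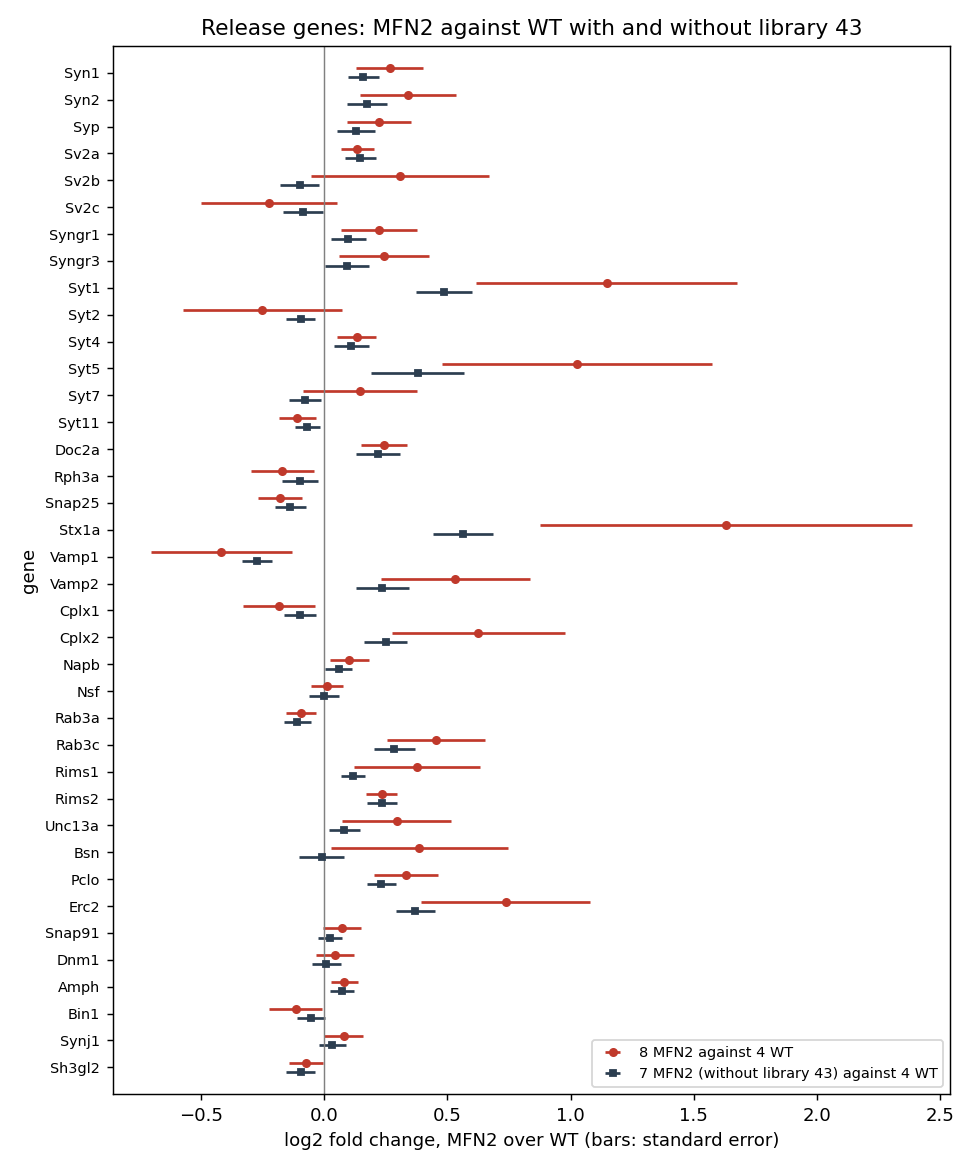
Log2 fold change of MFN2 over WT for each of the 38 genes, with bars for the standard error, from all 12 libraries (circles) and without library 43 (squares). Syt1, Syt5 and Stx1a lie above 1 with all libraries and at 0.49, 0.38 and 0.56 without library 43, with shorter error bars.

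Among vesicle membrane genes, log2 fold changes ran from -0.22 for Sv2c to 0.34 for Syn2, and 0 of 8 passed either threshold with 12 libraries, where 0% of all genes tested passed the FDR and 15.0% the unadjusted p. Syn1 encodes synapsin 1, which tethers vesicles to the cytoskeleton. It was at 314, 331, 326 and 297 CPM in the WT libraries and 571 CPM in library 43, with 320 to 389 CPM in the other 7 MFN2 libraries. Its log2 fold change was 0.27 with all 12 libraries and 0.16 without library 43 (edgeR FDR 0.36 and 0.19). Syp, synaptophysin, the usual marker protein of synaptic vesicles, was at 526, 497, 531 and 455 CPM in WT libraries. In MFN2 libraries it reached 838 CPM in library 43 and lay between 492 and 627 CPM in the others. Syp had a log2 fold change of 0.22 with library 43 and 0.13 without it. The genotypes overlapped for both genes. Syn2, a second synapsin, was at 160 ± 12.4 CPM (SD, n = 4) in WT cords and 180 ± 18.9 CPM (SD, n = 7) in MFN2 cords without library 43, which itself had 358 CPM. The log2 fold change of Syn2 was 0.34 with that library and 0.17 without it.

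Sv2b and Sv2c encode vesicle glycoproteins of the same family and differed in opposite directions in library 43. Sv2b was at 136, 158, 169 and 180 CPM in WT libraries, 542 CPM in library 43 and between 129 and 163 CPM in the other 7 MFN2 libraries. Sv2c was at 496, 584, 609 and 580 CPM in WT libraries, 140 CPM in library 43 and between 431 and 589 CPM in the others. Apart from library 43, the genotypes overlapped almost fully for both. The log2 fold change of Sv2b was 0.31 with library 43 and -0.10 without it (edgeR FDR 0.68 and 0.48), and that of Sv2c was -0.22 and -0.085 (edgeR FDR 0.69 and 0.57).

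The calcium sensors held the largest difference between paralogues. Syt1, the fast sensor of most forebrain synapses, was at 181, 145, 149 and 111 CPM in the WT libraries. In MFN2 libraries 41, 42 and 72 to 76 it was at 206, 214, 234, 177, 216, 214 and 176 CPM, and in library 43 at 1159 CPM. Of the 8 MFN2 libraries, 6 lay above every WT library, while 73 and 76 fell just under WT library 44. The log2 fold change was 1.15 with all 12 libraries (SE 0.53, edgeR FDR 0.34) and 0.49 without library 43 (SE 0.11, edgeR FDR 0.080). It was 0.47 with libraries 72 to 76 (edgeR FDR 0.033) and 0.53 with libraries 41 and 42, a difference that did not pass the FDR threshold.

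Syt2, the fast sensor of cord and hindbrain synapses, was at 699, 820, 842 and 795 CPM in WT libraries. It was at 668, 775, 778, 722, 744, 742 and 734 CPM in MFN2 libraries 41, 42 and 72 to 76, and at 137 CPM in library 43. Syt2 had a log2 fold change of -0.25 with library 43 (edgeR FDR 0.71) and -0.096 without it (SE 0.059, edgeR FDR 0.36), and the genotypes overlapped. Syt5 was at 15.0, 16.2, 15.8 and 7.77 CPM in WT libraries, 99.1 CPM in library 43 and between 13.7 and 23.0 CPM in the other MFN2 libraries. WT library 47 was low for Syt5, and the genotypes overlapped. The log2 fold change of Syt5 was 1.03 with library 43 and 0.38 without it (edgeR FDR 0.38 and 0.27). Doc2a encodes a calcium sensor linked to spontaneous release and was at 21.2, 20.5, 21.0 and 18.5 CPM in WT libraries. MFN2 libraries ran from 20.7 CPM, in library 76, to 27.4 CPM, with a log2 fold change of 0.24 with all 12 and 0.22 without library 43 (edgeR FDR 0.29 and 0.19). The other 4 genes of this role, Syt4, Syt7, Syt11 and Rph3a, had log2 fold changes between -0.17 and 0.15 with library 43 and between -0.099 and 0.11 without it.

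Among the fusion genes, Stx1a had the largest fold change of the 38. It encodes syntaxin 1A, a SNARE of the presynaptic plasma membrane. It was at 13.7, 16.3, 15.4 and 10.2 CPM in WT libraries. In MFN2 libraries 41, 42 and 72 to 76 it was at 21.9, 19.1, 24.3, 18.0, 20.0, 22.5 and 18.3 CPM, and in library 43 at 201 CPM. All 8 MFN2 libraries were above all 4 WT libraries. Stx1a had a log2 fold change of 1.63 (SE 0.76, edgeR FDR 0.34) with all 12 libraries and 0.56 (SE 0.12, edgeR FDR 0.075) without library 43. It was 0.57 with libraries 72 to 76 (edgeR FDR 0.011) and 0.57 with libraries 41 and 42 (edgeR FDR 0.86), each against the same 4 WT libraries. With scaling by library size only and without library 43, an alternative chosen after seeing the data, Stx1a was the 1 member called (edgeR FDR 0.048).

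Vamp1, the vesicle SNARE of cord and neuromuscular synapses, was at 529, 570, 632 and 610 CPM in the WT libraries. It was at 502, 537, 463, 461, 491, 464 and 470 CPM in MFN2 libraries 41, 42 and 72 to 76, and at 113 CPM in library 43. Only library 42 of the MFN2 libraries reached the WT range, just above WT library 44. Vamp1 had a log2 fold change of -0.42 with all 12 libraries (edgeR FDR 0.48), -0.27 without library 43 (SE 0.060, edgeR FDR 0.075) and -0.32 with libraries 72 to 76 (edgeR FDR 0.0020), where the levels did not overlap with WT. With libraries 41 and 42 it was -0.16 (edgeR FDR 0.90). Vamp2, the common vesicle SNARE of the brain, was at 192, 164, 161 and 126 CPM in WT libraries, 536 CPM in library 43 and between 156 and 211 CPM in the other MFN2 libraries. Its log2 fold change was 0.53 with library 43 and 0.24 without it (edgeR FDR 0.40 and 0.23), and the genotypes overlapped.

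Snap25 completes the SNARE bundle and was at 1591, 1830, 1945 and 1776 CPM in WT libraries. MFN2 libraries ran from 1472 to 1812 CPM apart from library 43, which was lowest at 1242 CPM. Its log2 fold change was -0.18 with all 12 libraries (edgeR FDR 0.36), -0.14 without library 43 (edgeR FDR 0.24) and -0.18 with libraries 72 to 76 (edgeR FDR 0.041). WT libraries 44 and 47 lay among the MFN2 values. Complexins bind the assembled SNARE bundle. Cplx1 was at 894, 1033, 1044 and 963 CPM in WT libraries, 497 CPM in library 43 and 822 to 995 CPM in the other MFN2 libraries, with a log2 fold change of -0.18 with library 43 and -0.098 without it. Cplx2 was at 189, 198, 197 and 168 CPM in WT libraries, 758 CPM in library 43 and 186 to 266 CPM in the others, with a log2 fold change of 0.63 with library 43 and 0.25 without it (edgeR FDR 0.39 and 0.15). Napb and Nsf, which take the used SNARE bundle apart, had log2 fold changes of 0.10 and 0.012 with library 43 and of 0.058 and 0.00015 without it.

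Active zone genes had the highest median log2 fold change of the 5 roles, 0.35 with all 12 libraries and 0.17 without library 43, when 5 of 8 had an unadjusted p under 0.05, all higher, where 21.2% of all genes tested did and 10.7% in the higher direction. Rims2 encodes a scaffold that gathers calcium channels and primed vesicles. It was at 140, 131, 138 and 121 CPM in WT libraries and 136, 166, 155, 163, 155, 159, 161 and 152 CPM in MFN2 libraries 41 to 43 and 72 to 76. Library 41 alone among the MFN2 libraries fell within the WT range, and library 43 did not stand out. The log2 fold change was 0.23 both with and without library 43 (SE 0.063 and 0.061, edgeR FDR 0.25 and 0.093) and 0.25 with libraries 72 to 76 (edgeR FDR 0.0047).

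Pclo, which encodes the giant scaffold piccolo, was at 519, 557, 543 and 511 CPM in WT libraries. It was at 557, 646, 986, 680, 584, 640, 654 and 615 CPM in MFN2 libraries 41 to 43 and 72 to 76. Library 41 lay only just above WT library 45, and the genotypes did not overlap. Pclo had a log2 fold change of 0.33 with all 12 libraries and 0.23 without library 43 (edgeR FDR 0.29 and 0.092). Erc2, a scaffold that binds the RIM proteins, was at 61.5, 61.4, 65.1 and 57.0 CPM in WT libraries. In MFN2 libraries 72 to 76 it was at 88.7, 80.0, 83.5, 87.8 and 75.4 CPM, all above WT, while libraries 41 and 42 had 65.1 and 73.6 CPM and library 43 263 CPM. Erc2 had a log2 fold change of 0.74 with all 12 libraries and 0.37 without library 43 (edgeR FDR 0.34 and 0.075). It was 0.44 with libraries 72 to 76 (edgeR FDR 0.00062), the lowest FDR of the 38 genes there, and 0.19 with libraries 41 and 42 (edgeR FDR 0.86).

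Rab3c, a vesicle GTPase that binds RIM, was at 272, 232, 242 and 207 CPM in WT libraries, 583 CPM in library 43 and between 254 and 320 CPM in the other MFN2 libraries. Its log2 fold change was 0.46 with all 12 and 0.28 without library 43 (edgeR FDR 0.31 and 0.12), and 2 MFN2 libraries, 73 and 76, fell within the WT range. Rab3a, the main Rab3 of brain vesicles, ran from 341 to 404 CPM in MFN2 libraries and from 372 to 430 CPM in WT libraries, with a log2 fold change of -0.094, or -0.11 without library 43. Bsn, bassoon, a giant scaffold like piccolo, was at 1251 CPM in library 43 and between 296 and 434 CPM in the other 11, with a log2 fold change of 0.39 with library 43 and -0.011 without it. Rims1 and Unc13a, which prime vesicles, had log2 fold changes of 0.38 and 0.29 with library 43 and of 0.12 and 0.082 without it.

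Genes of vesicle retrieval had the narrowest range of fold changes of the 5 roles. Their log2 fold changes ran from -0.12 for Bin1 to 0.082 for Amph with all 12 libraries, and 0 of 6 had an unadjusted p under 0.05 in the edgeR test in the 12-library fit, without library 43 or with libraries 72 to 76, where 15.0%, 21.2% and 37.8% of all genes tested did. Bin1 and Amph encode amphiphysins, which bend membrane. Bin1 was at 148 CPM in library 43 and between 204 and 248 CPM in the other 11, and without library 43 its log2 fold change was -0.054. Amph was at 199, 213, 215 and 193 CPM in WT libraries and between 206 and 233 CPM in MFN2 libraries, with a log2 fold change of 0.072 without library 43. Dnm1 was at 1051 ± 68.5 CPM (SD, n = 4) in WT cords and 1082 ± 93.8 CPM (SD, n = 8) in MFN2 cords, or 1057 ± 66.0 CPM (SD, n = 7) without library 43, and the genotypes overlapped.

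Paralogue ratios within a library hardly depend on how libraries are scaled. Mean log2 ratios of CPM were set against each other by exact permutation, two-sided, with Benjamini-Hochberg adjustment over the 4 pairs. With all 12 libraries none of the 4 passed. The difference of MFN2 minus WT was -1.21 for Syt2 to Syt1 (exact permutation p = 0.228, adjusted 0.304) and -0.97 for Vamp1 to Vamp2 (exact permutation p = 0.166, adjusted 0.304). It was -0.67 for Cplx1 to Cplx2 (exact permutation p = 0.190, adjusted 0.304) and -0.46 for Sv2c to Sv2b (exact permutation p = 0.699). The smallest p that the 495 splits allow is 0.00202.

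Library 43 had the lowest value of all 12 for each pair and turned the sign of each ratio. Its log2 ratio was -3.08 for Syt2 to Syt1, -2.24 for Vamp1 to Vamp2, -0.61 for Cplx1 to Cplx2 and -1.95 for Sv2c to Sv2b. The other 11 libraries were all positive for each pair. With library 43 left out, 3 of the 4 pairs were lower in MFN2 cords. Syt2 to Syt1 was 1.85 ± 0.141 (SD, n = 7) in MFN2 cords and 2.44 ± 0.368 (SD, n = 4) in WT cords, a difference of -0.60 (exact permutation p = 0.00909, adjusted 0.0121). Only WT library 44, at 1.95, fell within the MFN2 range of 1.70 to 2.06, while the other WT libraries were at 2.50, 2.49 and 2.83.

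Vamp1 to Vamp2 was 1.36 ± 0.145 (SD, n = 7) in MFN2 cords without library 43 and 1.88 ± 0.343 (SD, n = 4) in WT cords, a difference of -0.52 (exact permutation p = 0.00909, adjusted 0.0121). WT library 44, at 1.46, again lay within the MFN2 range of 1.13 to 1.56. Cplx1 to Cplx2 was 2.04 ± 0.144 (SD, n = 7) against 2.39 ± 0.111 (SD, n = 4), a difference of -0.34 (exact permutation p = 0.00606, adjusted 0.0121). Here the highest MFN2 library, at 2.22, was just below the lowest WT library, at 2.24. Sv2c to Sv2b did not follow. It was 1.83 ± 0.0904 (SD, n = 7) against 1.82 ± 0.0899 (SD, n = 4), a difference of 0.0085 (exact permutation p = 0.882).

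**Figure D5:**
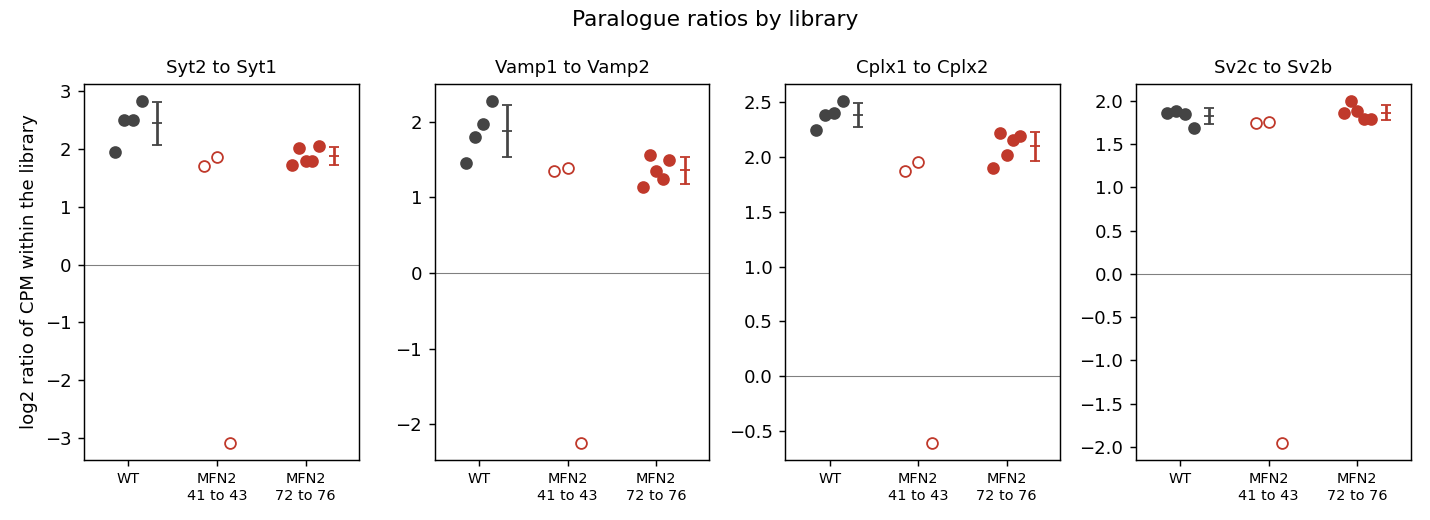
Log2 ratio of CPM within each library for 4 paralogue pairs, with points for libraries in WT, MFN2 libraries 41 to 43 (open circles) and MFN2 libraries 72 to 76, and bars for mean and SD of WT and of libraries 72 to 76. The lowest open circle in each panel is library 43, and the other 7 MFN2 libraries lie below all WT libraries in the third panel, below all but the lowest WT library in the first 2 and among or just above the WT libraries in the fourth.

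The runs of library numbers were set beside each other for the 3 pairs, each against the same 4 WT libraries. With libraries 72 to 76 against WT, the difference was -0.57 for Syt2 to Syt1 (exact permutation p = 0.0317, adjusted 0.0423), -0.52 for Vamp1 to Vamp2 (exact permutation p = 0.0317, adjusted 0.0423) and -0.29 for Cplx1 to Cplx2 (exact permutation p = 0.00794, adjusted 0.0317). With libraries 41 and 42, which share the run of numbers of the WT libraries, it was -0.67, -0.51 and -0.47, and both libraries were below all 4 WT libraries for each of the 3 pairs. That comparison, added after the data were seen, gave an exact permutation p of 0.133 for Syt2 to Syt1, 0.133 for Vamp1 to Vamp2 and 0.0667 for Cplx1 to Cplx2 (adjusted 0.178 for each), and none passed. The 15 splits cannot go below 0.0667. The forebrain list summed to 243 and 211 CPM in libraries 41 and 42 against 151 to 184 CPM in WT libraries. Camk2a made up 152 and 135 CPM of the sums in 41 and 42, against 69.5 to 118 CPM in WT libraries. In libraries 72 to 76 Camk2a was at 104 to 134 CPM. The mean log2 CPM of the list, 1.68 and 1.51 in libraries 41 and 42, lay within the WT range of 0.96 to 1.71. In libraries 72 to 76 the sum, 166 to 202 CPM, overlapped with WT. One of them, Nrgn, chosen after its values were seen, was at 19.3 to 25.4 CPM in the 7 MFN2 libraries without library 43 and at 11.7 to 18.0 CPM in WT libraries. The part of this in the ratios was not tested. In WT library 44 the ratios of Syt2 to Syt1, Vamp1 to Vamp2 and Cplx1 to Cplx2 were the lowest of the 4 WT values, and in WT library 47 the highest. Without libraries 43 and 47, an alternative added after the data were seen, the differences were -0.47, -0.38 and -0.30 (exact permutation p = 0.025, 0.025 and 0.0167, adjusted 0.0333 for each). The levels of Hoxd10 and of the motor neuron list given above also differ between these libraries, and their part in the ratios was not tested.

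Other genes of release were taken from a list of 80 further genes, of which 79 were found and 76 passed the filter. It holds vesicle transporters and membrane proteins, further synaptotagmins, SNAREs and Rab proteins, active zone and coat genes. With all 12 libraries 0 of 76 were called, where 0% of all genes tested were. An unadjusted p under 0.05 was found for 8, all higher, or 10.5% of the list. That compares with 15.0% of all genes tested, and 7.40% in the higher direction. The median log2 fold change of the 76 was 0.059. Without library 43, 1 was called, Synpr (synaptoporin, a vesicle membrane protein related to synaptophysin), with a log2 fold change of 0.49 (edgeR FDR 0.041) against 0.74 with library 43 (edgeR FDR 0.28), or 1.32% of the list against 0.120% of all genes tested, and 20 had an unadjusted p under 0.05, 17 higher and 3 lower. That is 26.3% against 21.2% of all genes tested, with 22.4% of the list and 10.7% of all genes higher. With libraries 72 to 76, 17 were called, 12 higher and 5 lower, or 22.4% against 23.8% of all genes. Calls higher took 15.8% of the list and 11.1% of all genes, and calls lower 6.58% and 12.7%.

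The 3 of lowest p among the higher genes were Rab27b, Cask and Stx3. Rab27b, a Rab protein of secretory vesicles, was at 36.2 ± 2.81 CPM (SD, n = 4) in WT cords and 46.2 ± 4.09 CPM (SD, n = 8) in MFN2 cords, a log2 fold change of 0.35 with library 43 and 0.34 without it (edgeR FDR 0.25 and 0.078). Library 41, at 37.9 CPM, was the only MFN2 library within the WT range of 32.2 to 38.5 CPM. Cask, a scaffold kinase of the presynaptic membrane, was at 104 ± 5.96 CPM (SD, n = 4) against 126 ± 9.79 CPM (SD, n = 8), a log2 fold change of 0.27 with library 43 and 0.24 without it (edgeR FDR 0.25 and 0.078). Stx3, a syntaxin, had a log2 fold change of 0.39 with library 43 and 0.42 without it (edgeR FDR 0.28 and 0.13). The 3 of lowest p among the lower genes were Vamp3, Stx4a and Slc32a1, with log2 fold changes of -0.33, -0.20 and -0.26 (edgeR FDR 0.39, 0.39 and 0.40), and of -0.25, -0.14 and -0.17 without library 43. Slc32a1, the vesicular transporter of GABA and glycine, was at 66.9 CPM in library 43 and between 124 and 136 CPM in the other MFN2 libraries, against 132 to 156 CPM in WT libraries. Its log2 fold change was -0.18 with libraries 72 to 76 (edgeR FDR 0.026).

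Promoters were read to describe what the genes share outside the counts. In RefSeq's table for GRCm38.p6, 29 of the 38 genes matched, with 39 promoters in all, and the 250 bases before each start were searched on both strands. The GC box GGGCGG was found in 21 of 39 promoters (53.8%), where 32.7% of 32851 promoters of all genes held it. The CRE sequence TGACGTCA was found in 2 (5.13%, against 1.55%), and its shorter form TGACG, which the full one contains, in 7 (17.9%, against 17.8%). The TATA sequence TATAAA was found in 2 (5.13%, against 12.4%). The left part of the RE1 element of neuronal genes, TCAGCACC, was found in 1 (2.56%, against 1.32%), and its right part, GGACAG, in 9 (23.1%, against 18.7%). Median GC content was 61.2% in the members' promoters and 52.4% in all. A match is a description of letters and does not show that a factor binds.

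The promoters of Syn1, Syt1 and Syt2 are shown because Syn1 held both the CRE and the left RE1 letters, and because Syt1 and Syt2 form the pair with the largest difference. Of the RefSeq promoters of a gene, the one with the most matches was taken, and for Syt2, where 2 had 4 matches each, the one of lower coordinate. Capitals mark matches to the CRE, the GC box and either RE1 part, on either strand, and each sequence reads in the direction of its gene. Those of Syt1 and Syt2 end at the base before the RefSeq start, and that of Syn1 ends where the GENCODE gene begins. Syn1 lies on the minus strand at chrX:20921005-20921168, Syt1 on the minus strand at chr10:109010976-109011225 and Syt2 on the plus strand at chr1:134646362-134646611, all on GRCm38.p6.
Syn1: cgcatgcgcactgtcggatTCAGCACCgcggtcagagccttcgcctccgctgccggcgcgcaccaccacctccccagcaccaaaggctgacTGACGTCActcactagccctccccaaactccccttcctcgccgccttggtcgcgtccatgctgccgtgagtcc
Syt1: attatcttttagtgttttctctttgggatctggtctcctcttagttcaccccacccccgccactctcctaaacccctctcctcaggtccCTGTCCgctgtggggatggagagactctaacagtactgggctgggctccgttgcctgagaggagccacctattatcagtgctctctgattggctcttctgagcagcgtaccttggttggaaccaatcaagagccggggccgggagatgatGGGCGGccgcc
Syt2: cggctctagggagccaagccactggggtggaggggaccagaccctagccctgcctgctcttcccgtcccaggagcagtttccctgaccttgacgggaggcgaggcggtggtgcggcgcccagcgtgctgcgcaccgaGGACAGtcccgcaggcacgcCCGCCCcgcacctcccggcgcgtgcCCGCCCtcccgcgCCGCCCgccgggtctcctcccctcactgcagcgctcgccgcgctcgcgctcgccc

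Positions are counted back from the RefSeq start, which for Syn1 lies past the end of the printed sequence. Syn1 held the CRE at 159 to 152 bases before that start and the left RE1 part at 231 to 224. Syt1 held 1 GC box, at 11 to 6 bases before the start, and Syt2 held 3, at 93 to 88, 68 to 63 and 55 to 50. Both also held the right RE1 part. On the annotation, Syt2 spans chromosome 1 from 134646677 to 134762593 and Syt1 chromosome 10 from 108497650 to 109010982. Stx1a spans chromosome 5 from 135023482 to 135051100 and Vamp1 chromosome 6 from 125215551 to 125245964.

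Counts of some members may hold reads of neighbours. Of the 38 genes, 14 share exon bases with another annotated gene, 13 of them with a gene on the opposite strand, and the strand setting of the counting is not given in the sources used here. Those 13 are Syn1 (with Araf), Syn2 (Timp4), Syp, Sv2b, Syt4, Syt7, Doc2a (Ino80e), Rab3a (Mpv17l2), Unc13a (Colgalt1), Pclo, Erc2, Bin1 and Synj1, and the other one is Bsn. Syt1, Syt2, Stx1a, Vamp1, Vamp2, Cplx1, Cplx2, Rims2 and Sv2c share none.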

How the data were processed

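Poly(A) RNA of the lumbar spinal cord was sequenced in 8 MFN2 and 4 WT mice. After adapter trimming and alignment with STAR to GRCm38, the authors deposited raw counts per Ensembl gene, 1 table per mouse. Which tool counted the reads, and with what strand setting, is not given in the sources used here. The labels and the study's methods name different SMARTer library kits. Mitochondrially encoded genes and the human transgene were not analysed here. Of 49548 genes, 49289 matched a symbol.

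Genes over 1 CPM in at least 3 libraries were kept, scaled by TMM and tested over the whole table with edgeR 4.0.16 (R 4.3.3, quasi-likelihood test, legacy form, robust), with Benjamini-Hochberg adjustment at an FDR of 0.05. This filter and these settings left 15942 genes. Log2 values used a prior count of 2, and RPKM used the union of exons in GENCODE M21. Ratios were tested by exact permutation. Alternatives were other filters and scalings, DESeq2 1.42.0, limma-voom (limma 3.58.1), subsets of libraries, covariates and each library left out. The edgeR script was tested on simulated data. Of the alternatives, 5 were added after the data were seen. No 2 libraries of the same genotype matched within counting noise, with a chi-square per degree of freedom of at least 5.34. Pairs of an MFN2 and a WT library were not compared in this way. Totals of 19359454 to 26738930 limit the precision of genes near 1 CPM. The members, lists and tests were chosen with earlier results of these data known.

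Named genes are the 4 paralogue pairs, Snap25, Stx1a, Syn1 and Syp, the 4 members of lowest p with 12 libraries, the 4 of largest change without library 43 and the lowest and highest fold change of each role. Other members are given by range, count and example. From the other release genes come the 3 of lowest p in each direction. Synpr was named as the 1 gene called, after its values were seen. Bsn, Dnm1, Nrgn, Snhg11, Tubb3, Hoxd10 and the marker genes named were also chosen after their values were seen, as were the promoters printed.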

Additional observations from a re-analysis of the deposited data

Results flagged for a closer look

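In 54 groups of libraries tested for a stray library, 24 had a highest or lowest library whose gap to its neighbour took more of the group's range than Dixon's critical value allows, where chance gives about 5% of groups, or 2.7. Of the 24, 22 were MFN2 library 43. The groups are not independent, since the ratios and the mean are built from the members and every measure uses the same libraries. Some genes were also named for their fold changes, so the 2.7 does not measure how unlikely the flags are. The gap over the range was 0.941 for Syt1, 0.829 for Syt2, 0.820 for Vamp1, 0.855 for Vamp2, 0.653 for Cplx1, 0.859 for Cplx2, 0.919 for Sv2b and 0.650 for Sv2c. It was 0.966 for Stx1a, 0.724 for Syn1, 0.611 for Syp, 0.713 for Pclo, 0.800 for Rab3c, 0.891 for Syt5, 0.881 for Erc2, 0.730 for Syn2 and 0.695 for Bin1. Among these, library 43 was the lowest for Syt2, Vamp1, Cplx1, Sv2c and Bin1 and the highest for the others. For the log2 ratios it was 0.930 for Syt2 to Syt1, 0.887 for Vamp1 to Vamp2, 0.877 for Cplx1 to Cplx2 and 0.934 for Sv2c to Sv2b, all with library 43 the lowest. For the mean log2 CPM of the 38 genes, which was 8.46 in library 43, it was 0.639.

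The other 2 were single values. Rims2 was lowest of the MFN2 libraries in library 41, at 136 CPM (gap over range 0.527), and Syt5 was lowest of the WT libraries in library 47, at 7.77 CPM (gap over range 0.855).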

How the results depend on the processing

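No paired analysis was possible because the genotypes share no library number. Against 0 genes and 0 members called with edgeR on 12 libraries, DESeq2 called 200 genes and 3 members (1.25% and 7.89%), and libraries 72 to 76 against WT 3746 genes and 7 members. Libraries 41 to 43, or 41 and 42, against WT gave 1 gene each, the forebrain covariate 18, and leaving out a library 0 to 19 genes (19 without MFN2 library 43, 7 without 41, 1 without 76) and 0 members. Added after seeing the data, scaling by library size only called 64 genes and 1 member without library 43 (2.63% of members and 0.404% of all genes), and 4167 genes and 13 members with libraries 72 to 76 (34.2% and 26.5%, with 31.6% and 17.9% higher). Members with an unadjusted p under 0.05 in edgeR, 4 higher and 0 lower, became 11 higher with library size only, 8 higher with DESeq2, 12 higher and 3 lower with libraries 72 to 76, 12 higher with 41 to 43 and 11 higher and 1 lower with 41 and 42. They were 16 higher and 1 lower with the run of numbers as a covariate, 1 higher and 2 lower with the pan-neuronal score and 8 higher and 1 lower with the forebrain score. The shares of members under that p, beside those of all genes, were 28.9% and 16.2% with library size only, 21.1% and 17.1% with DESeq2, 44.7% and 14.9% with the run covariate, 7.89% and 8.34% with the pan-neuronal score and 23.7% and 19.8% with the forebrain score. With each library left out they ran from 1 to 12 higher (1 without WT library 47, 12 without MFN2 library 43) and 0 to 1 lower. Without library 43, library size only gave 17 higher and 1 lower (47.4% against 23.2% of all genes) and the run covariate 12 higher and 2 lower (36.8% against 7.76%), while libraries 72 to 76 with library size only gave 18 higher and 1 lower (50.0% against 39.7%). Library size only moved the median over all genes tested to 0.054, and to 0.070 with libraries 72 to 76.

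The median log2 fold change of the members was 0.072 with libraries 72 to 76, 0.27 with 41 to 43, 0.083 with 41 and 42, -0.029 with the pan-neuronal score, 0.063 with the forebrain score and 0.073 without library 43 with the run covariate. It ran from 0.077 to 0.22 with each library left out. The ratio of Syt2 to Syt1 differed by -0.57 with libraries 72 to 76, -2.29 with 41 to 43 and -1.38 to -0.60 with each library left out. Vamp1 to Vamp2 differed by -0.52, -1.71 and -1.11 to -0.52, and Cplx1 to Cplx2 by -0.29, -1.31 and -0.75 to -0.34. All 3 passed at an adjusted exact permutation p of 0.05 with libraries 72 to 76, with 41 to 43 (adjusted 0.0381) and without library 43. With libraries 41 and 42 alone none did (adjusted 0.178 for each). The comparison of libraries 41 to 43 includes library 43. Its 35 splits allow no exact permutation p below 0.0286, where each of the 3 pairs stood. Without MFN2 library 43 and WT library 47, the differences were -0.47, -0.38 and -0.30 (adjusted exact permutation p 0.0333 for each). Sv2c to Sv2b turned to 0.041 with libraries 72 to 76 and ran from -0.56 to 0.0085 with each library left out.

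With the pan-neuronal score the log2 fold change turned sign for 19 of the 38 members, 16 from positive to negative. It became -0.29 for Bsn, -0.12 for Unc13a, -0.083 for Rims1, -0.067 for Nsf, -0.031 for Napb and -0.081 for Dnm1, and, among the genes described in every library, 0.080 for Syt2, -0.011 for Vamp2, -0.042 for Cplx2, -0.38 for Sv2b, 0.057 for Sv2c, -0.026 for Syp and Syn2 and 0.034 for Bin1. Sv2b was also negative with the forebrain score (-0.14), with libraries 41 and 42 (-0.20), with 72 to 76 (-0.060), without library 43 (-0.10, the lowest of the range to 0.38 with each library left out, or -0.041 with library size only and -0.21 with the run covariate). Sv2c was 0.056 with libraries 72 to 76 and library size only. Bin1 was 0.010 with libraries 41 and 42 and, without library 43, 0.0026 with library size only and 0.00068 with the run covariate. The cause was not tested for any of these. Depth limits the lowest members, Stx1a, Syt5 and Doc2a, more than the others.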
